A study of Mus musculus with 4 samples.

Results

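The 10 genes described here code for proteins that make bone and control its mineral: Runx2, Sp7, Alpl, Ibsp, Ifitm5, Spp1, Sparc, Enpp1, Ank and Phospho1. They were chosen by gene name from the 22072 genes in the tables, with earlier results of these data known. All 10 were found there, and the values of a gene's transcript entries were summed. The groups were mesenchyme of Msx1-/- upper molars, Msx1+/- upper molars, Msx1-/- lower molars and Msx1+/- lower molars, all at embryonic day 14 and on a mixed strain background, with 1 library in each group. The Msx1+/- controls carry 1 mutant copy of Msx1 too, although the series title calls them wild type, and no allele name or treatment is given. The mesenchyme was isolated by laser capture from sections of frozen embryo heads, and material of 3 control and mutant pairs was pooled for RNA extraction, so each value is an average over embryos with no measured spread.

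Osteoblasts lay down a collagen matrix and then mineralize it. The transcription factor Runx2 starts that programme and Sp7, also called osterix, acts after it. Mineral grows when phosphate is released and when pyrophosphate, a small molecule that blocks crystal growth, is removed. Enpp1 makes pyrophosphate outside the cell from nucleotides, Ank carries pyrophosphate and ATP out of the cell, and tissue non-specific alkaline phosphatase, the product of Alpl, breaks pyrophosphate down. In normal mouse embryos of the day sampled, the dental mesenchyme is condensed around a cap of epithelium and tooth mineral has not formed. Bone begins to form in the jaw beside the tooth germs at that time. Msx1 encodes a homeodomain transcription factor of this mesenchyme, and molar development in mice without it stops early.

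Levels are in FPKM, fragments scaled to transcript length and to the number of mapped fragments, which allows genes to be compared per length. A difference is given as log2(FPKM + 1) in the Msx1-/- library minus that in the Msx1+/- library of the same jaw. A gene is called higher or lower where this difference was at least 1 in size, a threshold of size and not a test, since no group has a second library. Of the 10 genes, 9 reached a mean of 1 FPKM over the 4 libraries and were compared with the 10536 genes that did so, while Phospho1 did not reach it. Total coverage over transcripts was 264 to 410 megabases per library, lowest in the Msx1-/- lower library. Over all genes tested the median difference was -0.03 in upper molars and -0.39 in lower molars, so lower-jaw differences are also given after rescaling the libraries by the median of ratios. Msx1 itself was still read in the mutants, at 126 FPKM in Msx1-/- against 170 FPKM in Msx1+/- upper molars and at 85.9 FPKM in Msx1-/- against 184 FPKM in Msx1+/- lower molars, and it serves as no check of the labels. The defining genes of dental mesenchyme were present in each library, with Barx1 at 74.5 to 104 FPKM and Pax9 at 45.7 to 68.1 FPKM. In bulk tissue, fewer cells of a type and less RNA per cell cannot be told apart.

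The bone genes did not move as a block. In Msx1-/- molars of both jaws, Enpp1, Spp1, Ank and Runx2 were lower, Ibsp and Ifitm5 were higher, and Alpl, Sparc and Sp7 were not called in either jaw. Of the 9 genes compared, 2 were higher and 4 were lower in upper molars, where 4.33% of all genes tested were called in either direction (1.07% higher and 3.26% lower). The count was again 2 higher and 4 lower in lower molars, against 10.3% of all genes (0.873% higher and 9.43% lower). The same 6 genes made up both counts, and 1.99% of all genes were called the same way in both jaws (0.399% higher and 1.59% lower). The list was chosen with earlier results of these data known, so setting its counts beside these shares is no independent test. The 9 genes had a median of -0.10 in upper and -0.95 in lower molars, beside -0.03 and -0.39 for all genes tested, and it does not describe a list whose members went both ways. The same 2 higher and 4 lower genes were called in both jaws after rescaling, where 1.84% of all genes were. The 2 Msx1-/- libraries lay wholly above or below the 2 Msx1+/- libraries for 6 of the 9 genes, and 50.8% of all genes tested also did not overlap between genotypes.

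**Figure D1:**
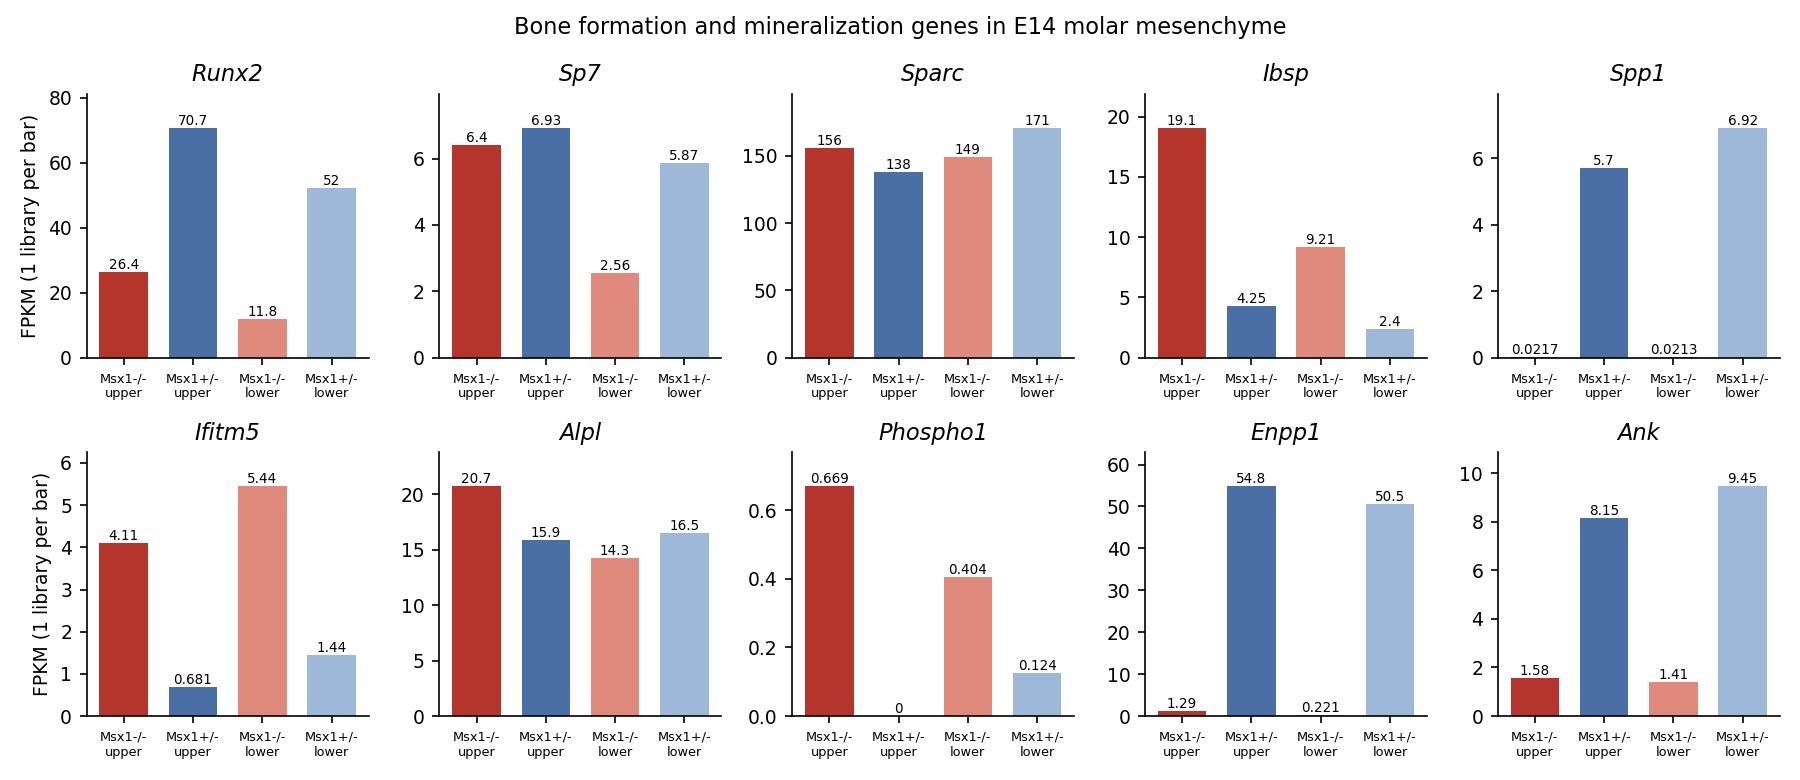
FPKM of each of the 10 genes in the 4 libraries, 1 bar per library, with the jaws side by side and each panel on its own axis starting at 0. Enpp1, Ank, Spp1 and Runx2 have low bars in both Msx1-/- libraries, Ibsp and Ifitm5 have high ones, and Sparc and Alpl are near level.

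**Figure D2:**
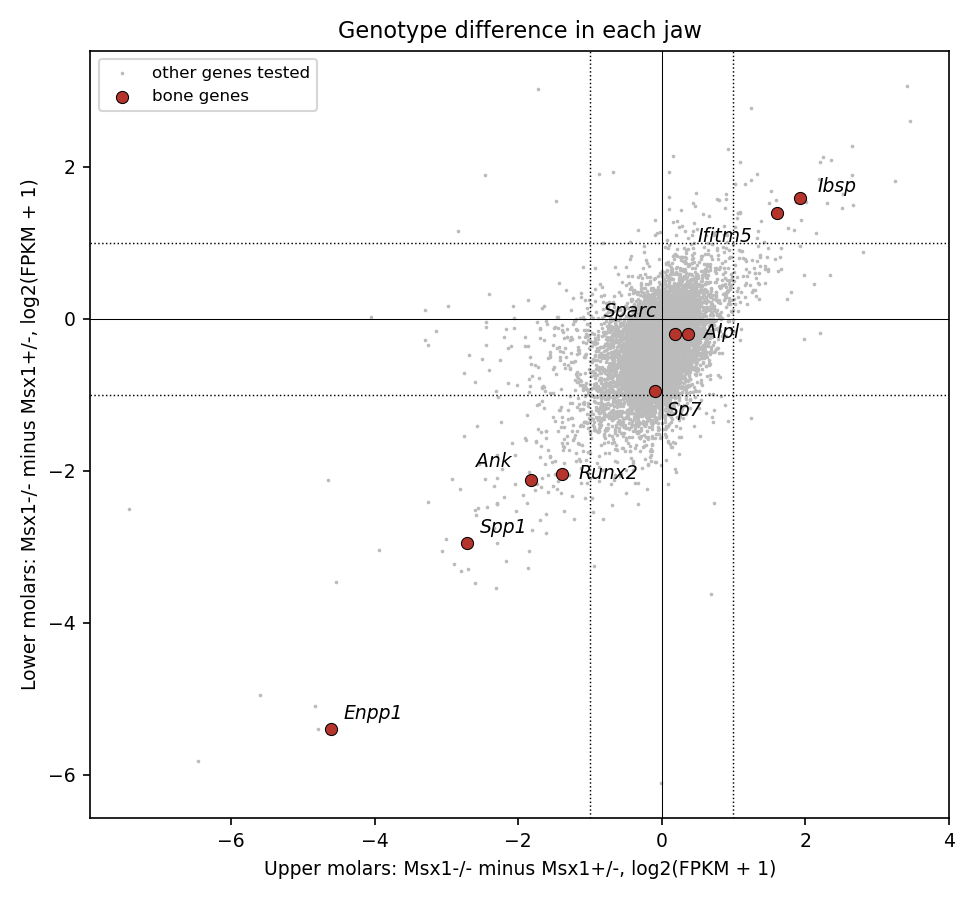
Msx1-/- minus Msx1+/- difference in log2(FPKM + 1) for upper molars (x axis) and lower molars (y axis), with all 10536 genes tested in grey, the 9 bone genes in red and the threshold of 1 dotted. Enpp1 lies at -4.60 and -5.40, Ibsp at 1.93 and 1.59, and Alpl and Sparc lie near 0 on both axes.

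The promoters below belong to the lowered regulator Runx2 and to Enpp1, which had the largest difference in log2(FPKM + 1) of the 9 genes. The others are those of Spp1 and Ibsp, genes of the same cluster that differed in opposite directions. Each is a RefSeq window of build GRCm38.p6, not the build of the tables and not matched to their entries, 250 bases before to 50 bases after an annotated start, printed 5′ to 3′ on the gene's strand. Capitals mark TGTGGT, the core letters bound by Runx factors, and TAATTG, core letters bound by homeodomain proteins such as Msx1, each searched on both strands, so that ACCACA and CAATTA are marked too.
Runx2 (chr17:44814578-44814877, minus strand): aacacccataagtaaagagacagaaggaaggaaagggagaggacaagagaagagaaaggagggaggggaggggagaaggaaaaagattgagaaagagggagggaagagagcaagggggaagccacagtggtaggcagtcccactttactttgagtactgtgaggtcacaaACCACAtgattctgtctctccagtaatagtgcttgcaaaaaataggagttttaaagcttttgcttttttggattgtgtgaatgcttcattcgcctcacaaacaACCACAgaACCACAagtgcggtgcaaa
Enpp1 (chr10:24712110-24712409, minus strand): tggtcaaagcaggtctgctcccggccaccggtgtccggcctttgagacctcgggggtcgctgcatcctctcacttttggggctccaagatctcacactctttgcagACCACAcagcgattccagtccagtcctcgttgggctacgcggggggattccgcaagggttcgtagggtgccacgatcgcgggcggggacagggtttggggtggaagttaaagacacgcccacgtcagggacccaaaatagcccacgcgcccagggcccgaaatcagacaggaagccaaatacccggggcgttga
Spp1 (chr5:104434861-104435160, plus strand): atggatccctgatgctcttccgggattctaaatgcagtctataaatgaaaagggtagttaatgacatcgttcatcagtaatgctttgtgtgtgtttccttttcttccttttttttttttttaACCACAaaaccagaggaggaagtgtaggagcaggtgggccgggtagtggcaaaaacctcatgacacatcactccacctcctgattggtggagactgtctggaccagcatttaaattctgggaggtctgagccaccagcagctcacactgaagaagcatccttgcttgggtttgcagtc
Ibsp (chr5:104299037-104299336, plus strand): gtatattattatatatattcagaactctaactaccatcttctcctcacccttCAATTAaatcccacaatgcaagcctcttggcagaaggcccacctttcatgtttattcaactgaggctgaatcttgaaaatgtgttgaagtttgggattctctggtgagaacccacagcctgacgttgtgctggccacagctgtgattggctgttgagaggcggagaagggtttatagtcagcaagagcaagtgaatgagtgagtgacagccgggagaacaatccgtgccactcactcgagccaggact
The Runx letters occurred 3 times in the Runx2 window, 80 bases before the start and 24 and 32 bases after it. They occurred once in the Enpp1 window (144 bases before the start) and once in the printed Spp1 window (128 bases before the start). The window of another annotated Spp1 start (chr5:104435942-104436241) held neither set of letters and is not printed. The table held 11 promoters of 9 of the 10 genes, all but Sp7, and 4 of the 11 held the Runx letters, the other being that of Sparc. Over 32851 promoters of all genes the share was 16.8%. The homeobox letters occurred in 1 of the 11, that of Ibsp (198 bases before the start), and in 8.0% of all promoters. These matches describe the letters in the windows and show no binding.

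Runx2 (chromosome 17, 44740950 to 44951746, mm9), the regulator that commits cells to the osteoblast lineage, was at 26.4 FPKM in Msx1-/- and 70.7 FPKM in Msx1+/- upper molars. In lower molars it was at 11.8 FPKM in Msx1-/- and 52.0 FPKM in Msx1+/- tissue. Both Msx1-/- libraries were below both Msx1+/- libraries. The upper-jaw difference was -1.39 and the lower-jaw difference -2.05, and after rescaling it was -1.34 and -1.58. Among all genes tested Runx2 ranked 82nd from the lowest by the mean difference over the jaws. When the control upper or the mutant lower library was left out, the gap between genotypes was 0.95 and Runx2 was not called, an alternative added after the data were seen.

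The tables hold 3 Runx2 transcript entries that divide by start site, 2 at the distal start and 1 at the proximal start, which give proteins with different first residues. The distal entries summed to 21.9 FPKM in Msx1-/- and 58.4 FPKM in Msx1+/- upper molars, and to 11.0 FPKM in Msx1-/- and 41.3 FPKM in Msx1+/- lower molars. The proximal entry was at 4.49 FPKM in Msx1-/- and 12.2 FPKM in Msx1+/- upper molars, and at 0.789 FPKM in Msx1-/- and 10.8 FPKM in Msx1+/- lower molars. Entries of both start sites were thus lower in the mutant, by 1.37 (distal) and 1.27 (proximal) in upper molars on the log2 scale. In lower molars the distal entries differed by -1.81 and the proximal entry by -2.72. These start-site differences were not rescaled, and rescaling moved the lower-jaw difference of the whole gene from -2.05 to -1.58. The distal share of Runx2 was 83.0% in Msx1-/- and 82.7% in Msx1+/- upper molars, against 93.3% in Msx1-/- and 79.3% in Msx1+/- lower molars. The split rests on Cufflinks' assignment of shared reads, with no error given. The Runx2 span overlaps that of Supt3h, which was at 2.01 to 2.58 FPKM in the 4 libraries.

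**Figure D3:**
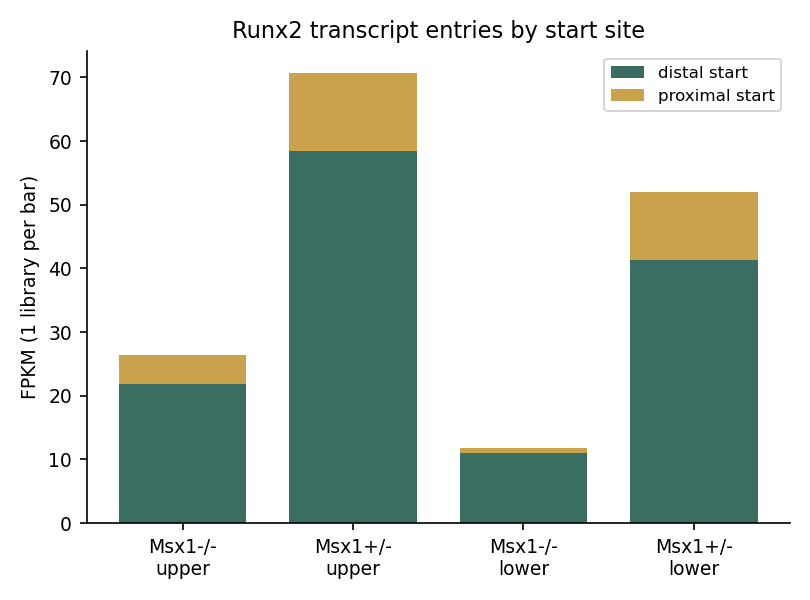
FPKM of Runx2 transcript entries in the 4 libraries, 1 bar per library, stacked by start site. The distal entries make up most of each bar, and both layers are smaller in the Msx1-/- library of each jaw.

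Sp7 (chromosome 15, 102187608 to 102196702), which acts downstream of Runx2 in osteoblasts, was at 6.40 FPKM in Msx1-/- and 6.93 FPKM in Msx1+/- upper molars. It was at 2.56 FPKM in Msx1-/- and 5.87 FPKM in Msx1+/- lower molars, so the low value was in 1 library. It differed by -0.10 in the upper jaw and by -0.95 in the lower jaw, where rescaling brought it to -0.56, and Sp7 was not called. Per length, the Sp7 level relative to Runx2 was 0.242 in Msx1-/- and 0.0980 in Msx1+/- upper molars, and 0.216 in Msx1-/- and 0.113 in Msx1+/- lower molars.

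Sparc (chromosome 11, 55208003 to 55233582) encodes osteonectin, a collagen- and mineral-binding matrix protein made by many mesenchymal cells. It had the highest level of the 10 genes in each library, at 156 FPKM in Msx1-/- and 138 FPKM in Msx1+/- upper molars and at 149 FPKM in Msx1-/- and 171 FPKM in Msx1+/- lower molars. The genotypes overlapped, and the differences of 0.18 and -0.19 became 0.22 and 0.29 after rescaling.

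Ibsp and Spp1 encode bone sialoprotein and osteopontin, acidic secreted phosphoproteins that bind mineral and integrins. They lie in a cluster of 5 such genes within 270 kb of chromosome 5, in the order Dspp, Dmp1, Ibsp, Mepe and Spp1. Ibsp (104728306 to 104740491), which promotes mineral formation, was at 19.1 FPKM in Msx1-/- and 4.25 FPKM in Msx1+/- upper molars, and at 9.21 FPKM in Msx1-/- and 2.40 FPKM in Msx1+/- lower molars. Both Msx1-/- libraries were above both controls, and Ibsp differed by 1.93 in the upper and 1.59 in the lower jaw (1.96 and 2.0 after rescaling). Without the mutant upper or the control lower library the gap was 0.96, and Ibsp was not called. Its mean difference ranked 18th from the highest.

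Spp1 (104864130 to 104870072), which inhibits crystal growth and is also made by macrophages and osteoclasts, differed the other way. It was at 0.0217 FPKM in Msx1-/- and 5.70 FPKM in Msx1+/- upper molars, and at 0.0213 FPKM in Msx1-/- and 6.92 FPKM in Msx1+/- lower molars. The Msx1-/- values rest on 34.7 and 28.0 bases of coverage over the transcripts in the upper and lower library, against 8536 and 7978 bases in the Msx1+/- upper and lower libraries. Spp1 was therefore close to undetected in the mutants at this depth, and no fold is given. The log2(FPKM + 1) difference came to -2.71 in the upper and -2.95 in the lower jaw (-2.64 and -2.79 after rescaling), ranking 18th from the lowest. Of its 5 transcript entries, 1 held most of the Msx1+/- signal, at 5.04 FPKM in upper and 6.92 FPKM in lower molars, and another was at 0.663 FPKM in upper molars. Of the other genes of the cluster, the odontoblast and osteocyte gene Dmp1 was at 0.0147 and 0.0152 FPKM in Msx1-/- upper and lower molars and at 0.259 and 0.432 FPKM in Msx1+/- upper and lower molars, too low to be tested. Dspp and Mepe were listed at 0 in every library.

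Ifitm5 (chromosome 7, 148134861 to 148136138) encodes a small membrane protein found largely in osteoblasts. It was at 4.11 FPKM in Msx1-/- and 0.681 FPKM in Msx1+/- upper molars, and at 5.44 FPKM in Msx1-/- and 1.44 FPKM in Msx1+/- lower molars. The genotypes did not overlap, and Ifitm5 differed by 1.60 in the upper and 1.4 in the lower jaw (1.61 and 1.77 after rescaling), ranking 30th from the highest. Its transcript is 709 bases long, so these values rest on 3166 and 505 bases of coverage in Msx1-/- and Msx1+/- upper molars and on 3565 and 832 bases in Msx1-/- and Msx1+/- lower molars.

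Alpl (chromosome 4, 137297647 to 137352292), the phosphatase that removes pyrophosphate, was at 20.7 FPKM in Msx1-/- and 15.9 FPKM in Msx1+/- upper molars. It was at 14.3 FPKM in Msx1-/- and 16.5 FPKM in Msx1+/- lower molars. The genotypes overlapped, and the differences were 0.36 in upper and -0.20 in lower molars (0.40 and 0.26 after rescaling). Phospho1 (chromosome 11, 95685814 to 95693454), a phosphatase that releases phosphate inside matrix vesicles, was at 0.669 FPKM in Msx1-/- upper molars and was listed at 1.72e-44 FPKM, which is no signal, in Msx1+/- upper molars. It was at 0.404 FPKM in Msx1-/- and 0.124 FPKM in Msx1+/- lower molars. All 4 values are under 1 FPKM, and the Phospho1 span overlaps that of Abi3, which was at 1.23 to 1.93 FPKM. The counting is not known to use strand, so reads of the pair may not be told apart.

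The pyrophosphate genes Enpp1 and Ank were both lower in the mutants. Enpp1 (chromosome 10, 24361217 to 24431908) was at 1.29 FPKM in Msx1-/- and 54.8 FPKM in Msx1+/- upper molars, and at 0.221 FPKM in Msx1-/- and 50.5 FPKM in Msx1+/- lower molars. The Msx1-/- to Msx1+/- ratio of FPKM was 0.0236 in upper and 0.00437 in lower molars, and the low values rest on 4527 and 657 bases of coverage. The difference of -4.60 in upper and -5.40 in lower molars (-4.54 and -5.16 after rescaling) ranked 4th from the lowest of all genes tested. In the Msx1+/- libraries Enpp1 was the third most abundant of the 10 genes per length, after Sparc and Runx2.

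Ank (chromosome 15, 27396432 to 27524662) was at 1.58 FPKM in Msx1-/- and 8.15 FPKM in Msx1+/- upper molars, and at 1.41 FPKM in Msx1-/- and 9.45 FPKM in Msx1+/- lower molars. The genotypes did not overlap. It differed by -1.83 in the upper and -2.12 in the lower jaw (-1.77 and -1.77 after rescaling), ranking 55th from the lowest. With Alpl near level, the Alpl level per length was 16.0 times that of Enpp1 in Msx1-/- upper molars, against 0.290 times in Msx1+/- upper molars. In lower molars it was 64.7 times that of Enpp1 in Msx1-/- tissue and 0.327 times in Msx1+/- tissue. The Msx1-/- ratios rest on low Enpp1 values, 1.29 FPKM in upper and 0.221 FPKM (657 bases of coverage) in lower molars. They do not measure a difference between the jaws.

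The jaws were then compared within a genotype, as upper minus lower. In Msx1-/- molars Runx2 (1.09) and Sp7 (1.05) were higher in the upper jaw, 2 of 9 genes. Of all genes 3.22% were higher there, and 3.64% were called in either direction. Neither Runx2 nor Sp7 was called after rescaling, at 0.77 and 0.79, where 1.29% of all genes were higher and 2.26% were called in either direction. In Msx1+/- molars 0 of the 9 genes were called, where 1.7% of all genes were, and the differences there lay between -0.54 for Ifitm5 and 0.63 for Ibsp. The genotype difference itself differed between upper and lower jaw by less than 1 in each of the 9 genes, with 0.85 in Sp7 and 0.79 in Enpp1 (0.50 and 0.62 after rescaling), where 6.92% of all genes differed by at least 1. With 1 library a group this was not tested.

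**Figure D4:**
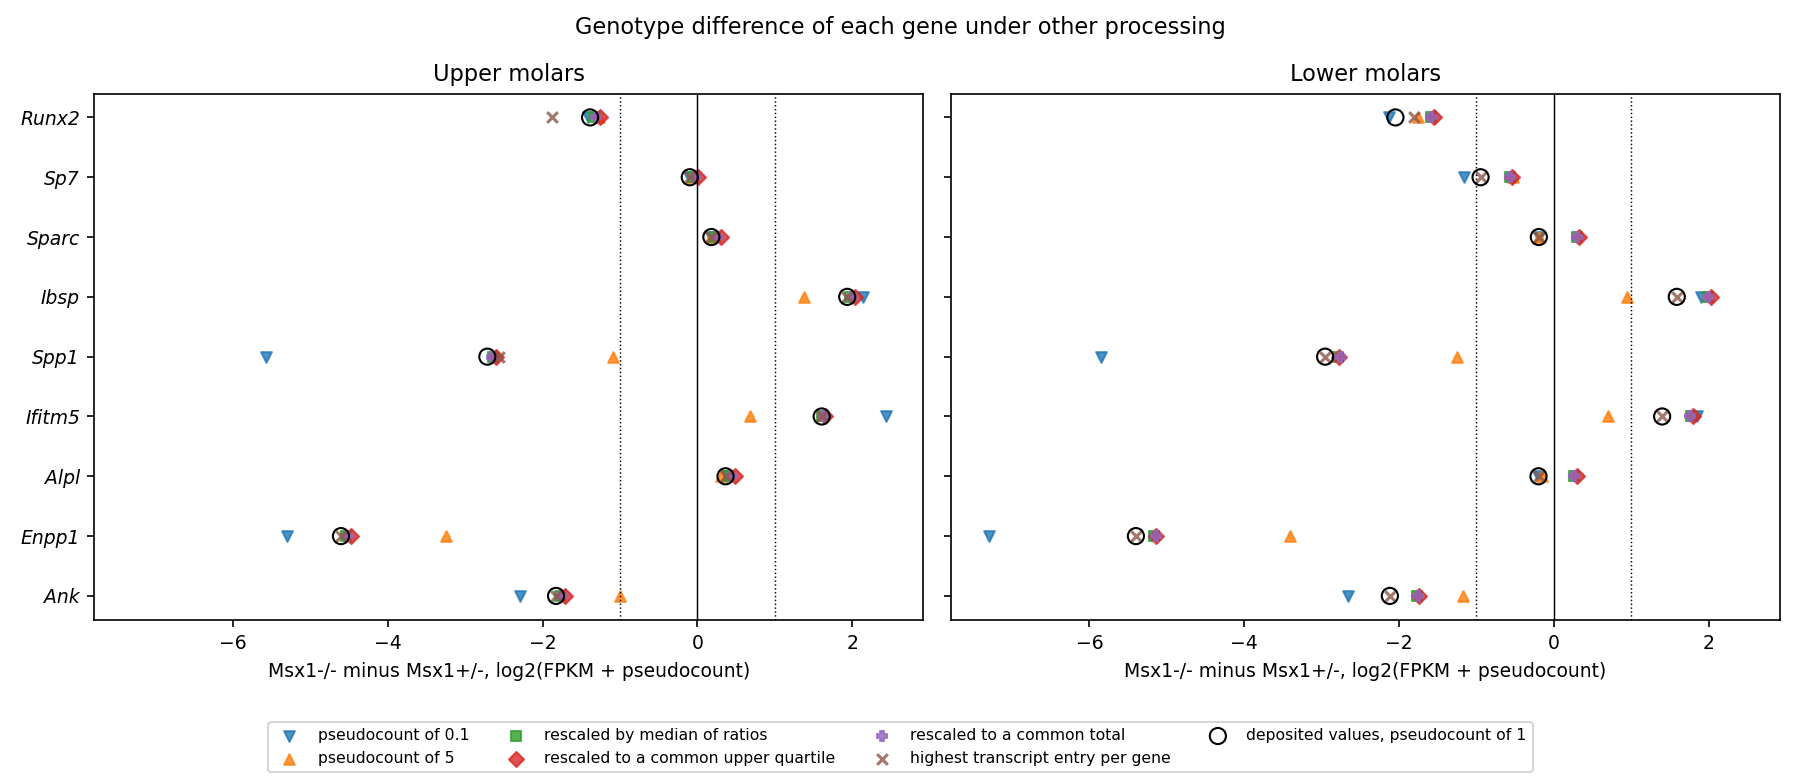
Msx1-/- minus Msx1+/- difference of 9 genes in upper (left) and lower (right) molars under the settings in the legend, with the values as reported as open circles and the threshold of 1 dotted. Spp1 ranges most with the pseudocount, Ibsp, Ifitm5 and Ank come near or inside the threshold with a pseudocount of 5, and rescaling moves Alpl and Sparc across 0 in lower molars.

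Other genes of bone formation were read from 4 further lists, whose counts stand against 0.399% of all genes higher and 1.59% lower in both jaws. Of 13 osteoblast transcription regulators tested, 0 were higher and 1 was lower in both jaws. That was Twist2, a repressor of osteoblast maturation, at 3.34 FPKM in Msx1-/- and 10.4 FPKM in Msx1+/- upper molars and at 4.46 FPKM in Msx1-/- and 13.6 FPKM in Msx1+/- lower molars. It was not called in lower molars after rescaling (-0.99). The 2 members with the highest mean over the libraries were Twist1, at 43.6 FPKM in Msx1-/- and 37.3 FPKM in Msx1+/- upper molars and at 19.8 FPKM in Msx1-/- and 49.7 FPKM in Msx1+/- lower molars, and Cbfb, the partner subunit of Runx2. Cbfb was at 33.3 FPKM in Msx1-/- and 42.3 FPKM in Msx1+/- upper molars and at 17.1 FPKM in Msx1-/- and 47.0 FPKM in Msx1+/- lower molars. The list's median was -0.21 in upper and -0.72 in lower molars, beside -0.03 and -0.39 for all genes, and after rescaling it was -0.17 and -0.25.

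Of 13 genes of phosphate and pyrophosphate handling tested, 0 were higher and 1 was lower in both jaws, with list medians of -0.25 in upper and -0.57 in lower molars (-0.21 and -0.19 after rescaling). The lower gene was Entpd1, which degrades extracellular ATP, the substrate of Enpp1. It was at 3.55 FPKM in Msx1-/- and 8.42 FPKM in Msx1+/- upper molars, and at 1.89 FPKM in Msx1-/- and 9.53 FPKM in Msx1+/- lower molars. The members with the highest means, the annexin genes Anxa6 and Anxa2, differed by 0.05 and 0.04 in upper and by -0.35 and -0.10 in lower molars, where rescaling turned both signs (0.13 and 0.38).

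Of 13 genes of bone and dentin matrix and its processing tested, 0 were called in both jaws, and the medians were 0.40 in upper and -0.05 in lower molars (0.44 and 0.41 after rescaling). Col1a1, the main collagen chain of bone, was at 204 FPKM in Msx1-/- and 144 FPKM in Msx1+/- upper molars and at 201 FPKM in Msx1-/- and 181 FPKM in Msx1+/- lower molars. Postn, a matrix gene of periosteum and tooth mesenchyme, was at 229 FPKM in Msx1-/- and 155 FPKM in Msx1+/- upper molars and at 197 FPKM in Msx1-/- and 256 FPKM in Msx1+/- lower molars. Of the genes of late osteoblasts, osteocytes or odontoblasts, Bglap, Bglap2, Dmp1, Dspp, Mepe and Sost stayed under 1 FPKM in each library. Phex, a gene of osteocytes and odontoblasts, was at 0.707 FPKM in Msx1-/- and 0.875 FPKM in Msx1+/- upper molars and at 2.23 FPKM in Msx1-/- and 2.16 FPKM in Msx1+/- lower molars. Of 12 genes of bone-forming signals tested, 0 were called in both jaws, and the medians were 0.15 in upper and -0.25 in lower molars (0.19 and 0.21 after rescaling). Bmp4, with the highest mean over the libraries of those tested, was at 17.6 FPKM in Msx1-/- and 25.0 FPKM in Msx1+/- upper molars and at 20.2 FPKM in Msx1-/- and 34.7 FPKM in Msx1+/- lower molars. Fgfr1, a receptor gene of that list, was left out because the tables mark its estimate as failed.

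Markers of other cells that laser capture could include moved in several directions. Osteoclast markers summed to 8.08 FPKM in Msx1-/- and 78.9 FPKM in Msx1+/- upper molars and to 7.83 FPKM in Msx1-/- and 84.6 FPKM in Msx1+/- lower molars. Of the 8 found, 4 were tested and 2 were lower in both jaws, where 1.59% of all genes were. Most of that sum was Mmp9, a matrix protease, at 1.52 FPKM in Msx1-/- and 68.6 FPKM in Msx1+/- upper molars and at 0.600 FPKM in Msx1-/- and 66.4 FPKM in Msx1+/- lower molars. Acp5, the acid phosphatase of osteoclasts, was at 0.486 FPKM in Msx1-/- and 3.06 FPKM in Msx1+/- upper molars and at 0.511 FPKM in Msx1-/- and 5.61 FPKM in Msx1+/- lower molars. The protease gene Ctsk was at 5.04 FPKM in Msx1-/- and 4.95 FPKM in Msx1+/- upper molars and at 5.58 FPKM in Msx1-/- and 8.90 FPKM in Msx1+/- lower molars. Itgb3 was tested and not called, at -0.76 in upper and -0.79 in lower molars, and stayed negative in both jaws after rescaling. Atp6v0d2, too low to be tested, had a smaller value in the Msx1-/- than in the Msx1+/- library of each jaw. Calcr, Tnfrsf11a and Oscar, defining for osteoclasts, were under 1 FPKM throughout. Mmp9 and Acp5 were lower in the mutants of both jaws, as Spp1 was, and the part of osteoclasts in its difference was not tested.

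Macrophage markers summed to 47.1 FPKM in Msx1-/- and 39.0 FPKM in Msx1+/- upper molars and to 58.6 FPKM in Msx1-/- and 53.3 FPKM in Msx1+/- lower molars. Of the 10 tested, 0 were called in either jaw, where 4.33% of all genes were called in upper and 10.3% in lower molars. After rescaling 2 were higher in lower molars, where 2.36% of all genes were. Those with the highest means were Fcer1g and Tyrobp, at 7.07 to 12.2 FPKM over the 4 libraries. The part of macrophages in the Spp1 difference was not tested.

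Cartilage markers summed to 16.0 FPKM in Msx1-/- and 7.15 FPKM in Msx1+/- upper molars and to 21.8 FPKM in Msx1-/- and 6.02 FPKM in Msx1+/- lower molars. Of the 3 tested, Hapln1 was higher in both jaws, where 0.399% of all genes were. It was at 3.93 FPKM in Msx1-/- and 1.30 FPKM in Msx1+/- upper molars and at 10.3 FPKM in Msx1-/- and 1.70 FPKM in Msx1+/- lower molars. Col2a1, the main cartilage collagen, was at 4.59 FPKM in Msx1-/- and 2.03 FPKM in Msx1+/- upper molars and at 7.20 FPKM in Msx1-/- and 1.98 FPKM in Msx1+/- lower molars. It was not called in upper molars (0.89) and was called higher in lower molars (1.46), where 0.873% of all genes were. Sox9 was tested and not called, at 0.61 in both jaws (0.64 and 0.96 after rescaling). Lect1, too low to be tested, was at 1.45 FPKM in Msx1-/- and 0.0448 FPKM in Msx1+/- upper molars. In lower molars it was at 0.299 FPKM in Msx1-/- and 0.197 FPKM in Msx1+/- tissue. Acan, Matn1 and Col10a1 were under 1 FPKM. Epithelium markers summed to 49.7 FPKM in Msx1-/- and 28.3 FPKM in Msx1+/- upper molars and to 66.1 FPKM in Msx1-/- and 45.2 FPKM in Msx1+/- lower molars. Of the 6 tested, Krt15 was higher in both jaws, where 0.399% of all genes were. It was at 3.15 FPKM in Msx1-/- and 0.865 FPKM in Msx1+/- upper molars and at 9.09 FPKM in Msx1-/- and 1.94 FPKM in Msx1+/- lower molars. Krt5 was also called higher in both jaws after rescaling, where 0.683% of all genes were. Krt5 and Krt14, with the highest means, were at 7.18 to 28.1 FPKM, while Cdh1 and Shh were under 1 FPKM. The part of cartilage and epithelium in the higher Ibsp and Ifitm5 values was not tested.

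Dental mesenchyme markers summed to 620 FPKM in Msx1-/- and 747 FPKM in Msx1+/- upper molars and to 454 FPKM in Msx1-/- and 671 FPKM in Msx1+/- lower molars. Of the 9 tested, Dlx2 and Prrx2 were lower in both jaws, where 1.59% of all genes were. Dlx2, a homeobox gene of the dental mesenchyme, was at 14.7 FPKM in Msx1-/- and 56.3 FPKM in Msx1+/- upper molars and at 2.66 FPKM in Msx1-/- and 34.7 FPKM in Msx1+/- lower molars. Prrx2 was at 26.6 FPKM in Msx1-/- and 83.9 FPKM in Msx1+/- upper molars and at 25.8 FPKM in Msx1-/- and 73.7 FPKM in Msx1+/- lower molars. Prrx1 was at 117 to 163 FPKM over the 4 libraries. Endothelium markers summed to 41.9 FPKM in Msx1-/- and 45.3 FPKM in Msx1+/- upper molars and to 38.8 FPKM in Msx1-/- and 48.6 FPKM in Msx1+/- lower molars. Of these 8 markers, 0 were called in both jaws, where 1.99% of all genes were. Skeletal muscle markers summed to 3.34 to 5.55 FPKM, and Myod1 and Myog were under 1 FPKM.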

How the data were processed

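RNA of laser-captured molar mesenchyme was made into cDNA by the NuGEN Ovation method, per the labels' protocols, in 4 groups of 1 library by genotype and jaw. Reads were aligned to mm9 with Bowtie 0.12.7 and TopHat 1.4.1, per the submitters' processing notes. The deposited tables, Cufflinks output by name, give FPKM and a coverage signal (read depth per base) for 28107 RefSeq entries, per the file headers. The Cufflinks version and options are not given in the sources used here. Coverage equalled FPKM times 1 constant per library (0.812 to 1.09), and coverage times length gave the bases behind a value. Read counts are unknown, so no counting interval is given. Strand use in counting is also not given.

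FPKM was summed per gene. Genes with a failed estimate (66) or a longest transcript under 200 bases (723) were left out, and a mean of at least 1 FPKM left 10536 genes. Differences are in log2(FPKM + 1), which understates changes of low genes, with 1 as the calling threshold. No group has a second library, so the calls rest on size and not on a test. A limma 3.58.1 model (R 4.3.3) with genotype and jaw as additive terms was an alternative, tested on simulated data. Start positions count from 0 in the tables, and 1 was added. Python 3.11.15 with pandas 2.3.3 was used. Named genes were the 10 genes, Msx1, and, of 11 further lists (135 of 138 symbols found), those called in both jaws and the 2 with the highest mean FPKM. The 2 with the highest mean of the endothelium and skeletal muscle lists are not named. Others (Dmp1, Phex, Supt3h, Abi3, Calcr, Itgb3 and similar) were added after their values were seen. The genes and lists were chosen with earlier results of these data known.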

Additional observations from a re-analysis of the deposited data

Results flagged for a closer look

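In 2 of the 9 genes the upper and lower molars differed between genotypes in opposite directions, which was not tested. Alpl showed 0.36 in the upper and -0.20 in the lower jaw (Msx1-/- minus Msx1+/-, log2(FPKM + 1)). Sparc showed 0.18 in the upper and -0.19 in the lower jaw. These sizes are under the calling threshold, and after rescaling by the median of ratios both genes were positive in both jaws (0.40 and 0.26 for Alpl, 0.22 and 0.29 for Sparc).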

How the results depend on the processing

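The number of bone genes called was 6 in each jaw, and the same 6 in both, as reported. With a pseudocount of 5 it was 3 in both jaws (Runx2, Spp1 and Enpp1), since Ibsp, Ifitm5 and Ank are low and the larger pseudocount shrinks low values. Leaving out any 1 library, added after the data were seen, gave 5 (without Ibsp where the mutant upper or control lower library was left out, and without Runx2 where the control upper or mutant lower library was), and 222 to 707 of all genes. In limma with genotype and jaw as additive terms, 6 of 9 genes had a Benjamini-Hochberg adjusted p under 0.05, the highest of them 0.000245 for Runx2. That model has 1 residual degree of freedom and took its spread wholly from the trend over all genes, so these values do not measure each gene's own spread, and it called 584 of all genes. The count of genes higher in Msx1-/- upper than lower molars (2) was 4 with a pseudocount of 0.1, 1 with the highest transcript entry per gene, and 0 with a pseudocount of 5, a threshold of 1.5 or any of the 3 rescalings. Of all 10536 genes tested, 339 were higher as reported and 790 with a pseudocount of 0.1. The number was 92 with a pseudocount of 5, 65 with a threshold of 1.5 and 136 to 164 after the rescalings. With the highest entry it was 378 of 10451. Genotype differences that differed between jaws by at least 1 numbered 0, and 2 with a pseudocount of 0.1 (Sp7 and Enpp1). Of all 10536 genes tested, 729 did so as reported and 1546 with a pseudocount of 0.1. The limma jaw term called 0 of 9 genes and 85 of all genes, and 3 of the 9 genes had an unadjusted p under 0.05. Over all genes, the number called was 456 in upper molars (180 to 742 over 9 alternatives), 1086 in lower molars (277 to 1885) and 210 in both (80 with a pseudocount of 5 at the lowest). In lower molars 92 genes were higher and 994 lower, against 249 and 319 after rescaling by the median of ratios. Of 474 values of single genes under the alternatives, 414 kept their direction and side of the threshold and 0 called values changed sign. Part of this was fixed in advance. The settings that change only the filter leave a gene's value as it was, as the highest entry does for genes with 1 entry. Another pseudocount or threshold cannot turn the sign of a difference between 2 libraries. These counts are therefore no measure of robustness. The labels carry no replicate numbers to pair libraries by, and the limma model compares the genotypes within each jaw. Depth limits the mutant Spp1 and Enpp1 values and all Phospho1 values.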
